A study of Homo sapiens with 32 samples.

Results

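RGS proteins (regulators of G protein signalling) were followed in HEK293 cells, a human embryonic kidney line, through the counts of 10 RGS genes: RGS2, RGS3, RGS4, RGS5, RGS10, RGS12, RGS14, RGS16, RGS17 and RGS19. They are 10 of 57773 genes in each of 2 count tables. They were chosen by name from the RGS family with earlier results of these data known. In these, RGS16 had been called higher with EGF after 24 h, so its EGF values after 24 h are given here as a description. Where its call or a count that holds this call is printed, it repeats what was known and is no support. All cells, the controls included, were transiently transfected with the angiotensin II type 1 receptor (AT1R), so that every culture was a mixed pool of cells with an overexpressed receptor. The 4 conditions were no stimulus (control), angiotensin II (AII, 1 nmol/l), epidermal growth factor (EGF, 10 µg/l) and both agents together (AII+EGF). Total RNA after removal of ribosomal RNA was sequenced after 6 h (16 libraries, 4 per condition) and after 24 h (15 libraries, 4 per condition except 3 with AII+EGF).

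RGS proteins bind the active, GTP-loaded alpha subunit of a heterotrimeric G protein and speed up GTP hydrolysis, which ends the signal of a G protein-coupled receptor. AT1R signals mainly through Gq/11. RGS2, RGS3, RGS4, RGS5 and RGS16 belong to the R4 subfamily of small RGS proteins, of which RGS2 prefers Gq, and transcripts of several R4 members are known to be induced by receptor and growth factor signals. RGS10, RGS12 and RGS14 form the R12 subfamily, and RGS17 and RGS19 belong to the RZ subfamily, which acts on Gz and Gi.

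The sequences before the start sites of the 2 genes with the highest log2 fold changes for EGF after 24 h, RGS16 and RGS10, are shown because EGF and AT1R signals are known to act on promoters through EGR, AP-1, CREB and serum response factor. Each is the stretch of 250 bases before a RefSeq start site (build GRCh38.p14, written 5′ to 3′ on the minus strand that carries the gene), from chr1:182604390-182604639 for RGS16 and chr10:119542720-119542969 for RGS10, which has 2 such starts. Capitals mark a match on either strand to the EGR motif GCGNGGGCG.
RGS16: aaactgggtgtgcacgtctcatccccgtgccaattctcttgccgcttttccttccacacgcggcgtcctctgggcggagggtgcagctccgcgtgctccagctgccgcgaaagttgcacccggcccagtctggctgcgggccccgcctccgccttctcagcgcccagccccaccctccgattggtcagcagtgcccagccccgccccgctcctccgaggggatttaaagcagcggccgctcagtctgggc
RGS10: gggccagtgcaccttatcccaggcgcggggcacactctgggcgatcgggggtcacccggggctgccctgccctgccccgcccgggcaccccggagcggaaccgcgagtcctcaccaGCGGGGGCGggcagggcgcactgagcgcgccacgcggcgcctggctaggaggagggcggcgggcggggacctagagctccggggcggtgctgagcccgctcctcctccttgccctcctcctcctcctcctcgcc
The RGS10 promoter shown held 1 EGR match, beginning 134 bases before the start. The second RGS10 promoter and the RGS16 promoter held none. G and C made up 77.2% of the RGS10 promoter shown, 46.0% of the second and 68.4% of the RGS16 promoter. The EGR motif is made of G and C, so a match also depends on this share. The motifs TGANTCA (AP-1), TGACGTCA (CRE) and the CArG box of serum response factor were also searched and were found in none of these promoters. Over the 24 promoters of all 10 genes, matches were found only for the EGR motif, in RGS10, RGS12 and RGS19. RGS10 has 2 of these promoters, RGS12 has 5, RGS19 has 2 and RGS16 has 1. A gene with more promoters has more room for a match, and the shares that follow are per promoter. Among 35116 promoters of this length in the table, 8.41% held the EGR motif, 6.57% the AP-1 motif, 1.65% the CRE and 1.16% the CArG box. A match in these letters does not show binding, and a missing match refers only to this window.

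Levels are given as FPM (counted fragments per 1000000 fragments of the TMM-scaled library). As a check of the EGF stimulus, EGR1, an immediate early gene, rose from 2.25 ± 0.72 FPM (mean ± SD, n = 4) in control to 51.5 ± 3.6 FPM with EGF after 6 h (edgeR, adjusted p = 2.4e-14). With AII after 6 h EGR1 was at 3.26 ± 0.74 FPM, 1.41-fold the control level (edgeR, adjusted p = 0.99). AII alone called 0% of all genes at either time point, so the AII stimulus has no such check here. AGTR1, the transcript of the receptor, was at 950 to 1568 FPM after 6 h and at 369 to 685 FPM after 24 h. After 6 h it was 1.27-fold the control level with AII (adjusted p = 0.99) and 1.37-fold with AII+EGF (edgeR, adjusted p = 0.00050), and its part in the RGS values was not tested. The HEK293 markers VIM, NEFL, NEFM and CDH2 were expressed in all libraries, whereas PAX2 had at most 10 counts. Of markers of other cell types, PTPRC and ALB had at most 7 counts per library, COL1A1 and MYH11 were at 3.12 to 30.3 FPM, and PECAM1 was not analysed here. Library totals were 3881841 to 8540815 counts after 6 h and 6646227 to 33070903 after 24 h. The share of U1 small nuclear RNA genes was 0.0314 to 0.300% at 6 h but 8.90 to 57.2% at 24 h, and that of protein-coding genes was 81.4 to 84.7% and 20.8 to 63.4%, respectively. The biological coefficient of variation was 10.6% after 6 h and 29.1% after 24 h, so that smaller differences were detectable after 6 h. After 24 h the library numbers fall into 2 series with a gap between them, each with libraries of every condition. After 6 h the numbers run without a gap, and the 2 series were taken from the repeated order of the conditions. The labels name no batch at either time point. After 24 h all 7 libraries of series 1 and 1 of series 2 came from count columns named as filtered. The labels do not say whether libraries of a condition came from separate cultures, so p-values measure the spread between these libraries.

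The RGS genes were expressed over a wide range in unstimulated cells (see the plot of levels per length). Levels between genes are given as FPM per kb of annotated exon, since genes differ in length. The length joins all annotated exons of a gene, from 1.27 kb for RGS10 to 13.8 kb for RGS12. It comes from another annotation release than the counts. The order of genes depends on it: in FPM, RGS12 was higher than RGS10 in control after 6 h (40.8 against 12.7 FPM). After 6 h, RGS10 (9.94 ± 1.03 FPM per kb, n = 4), RGS16 (8.19 ± 1.55) and RGS19 (7.28 ± 1.27) were highest, and neighbours in this order overlapped between libraries. RGS12 followed at 2.97 ± 0.56 FPM per kb, below every library of RGS19. RGS2 (1.86 ± 0.63), RGS17 (1.46 ± 0.12) and RGS14 (1.15 ± 0.40) came next, and from RGS12 to RGS14 each gene overlapped with its neighbour. RGS5 (0.40 ± 0.12) and RGS3 (0.26 ± 0.07) overlapped with each other and lay below every library of RGS14. RGS4 was hardly detected, with 0 to 3 counts per library after 6 h and 0 to 10 after 24 h, and did not pass the low-count filter. The other 9 genes passed it at both time points.

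**Figure D1:**
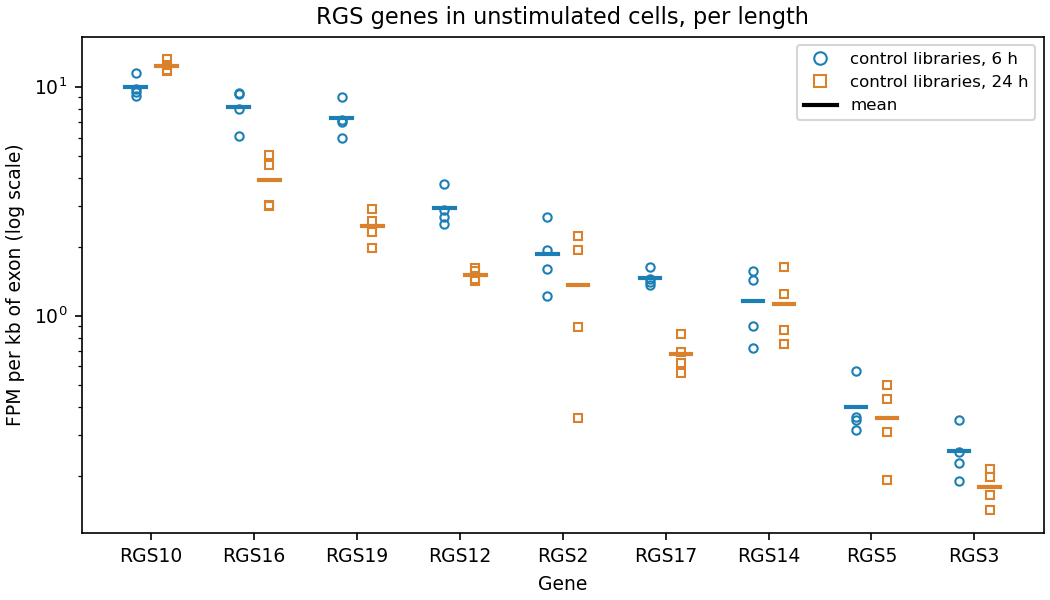
Level of 9 RGS genes in the control libraries in FPM per kb of exon (log scale); symbols are libraries, horizontal bars means. On this scale RGS10 was highest at both time points, at 9.94 FPM per kb after 6 h and 12.3 after 24 h. RGS4 is left out because of its counts of 0.

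After 24 h the control levels per length were 12.3 ± 0.7 FPM per kb for RGS10, 3.92 ± 1.03 for RGS16 and 2.46 ± 0.40 for RGS19, and the libraries of these 3 genes did not overlap. RGS12 was at 1.51 ± 0.10 FPM per kb, RGS2 at 1.36 ± 0.88, RGS14 at 1.12 ± 0.40 and RGS17 at 0.68 ± 0.12, and neighbours within this run overlapped. RGS5 (0.36 ± 0.14) and RGS3 (0.18 ± 0.03) came last among the genes tested and overlapped with each other. The tables of both time points were normalised separately and differ in their share of U1 RNA, so a level after 24 h was not tested against that after 6 h. A lower level in bulk RNA can come from fewer cells that express a gene or from less RNA per cell, and these cannot be told apart.

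RGS16 (ENSG00000143333, chr1:182567758-182573524 on the minus strand of GRCh37), which acts on Gi and Gq, was the only one of the 10 genes called in any comparison, with EGF after 24 h, where 0.0316% of all genes tested were called. This call was known when the genes were chosen, so it is not a new result. After 6 h its level in the control libraries was 22.4, 14.7, 19.2 and 22.7 FPM. With AII it was 19.97, 15.5, 18.7 and 20.99 FPM. With EGF it was 19.8, 22.7, 24.9 and 29.7 FPM, and with AII+EGF 26.6, 30.7, 27.8 and 27.4 FPM. All AII+EGF libraries lay above all control libraries, whereas the EGF libraries overlapped with control and the AII libraries lay within the range of the controls. RGS16 was 1.43-fold higher with AII+EGF than in control (log2 fold change 0.52 ± 0.14 SE, edgeR quasi-likelihood test, adjusted p = 0.027). This difference passed the FDR threshold but not the fold change of 1.5 that a call also required, and adjusted p exceeded 0.05 in 5 of the 16 fits that left out 1 library, reaching 0.12 without control replicate 2. The log2 fold change was 0.32 ± 0.14 with EGF alone (adjusted p = 0.20) and -0.07 ± 0.15 with AII alone (adjusted p = 0.99). Between AII+EGF and EGF it was 0.20 ± 0.13 (adjusted p = 0.72), and the interaction of AII and EGF, which is the AII+EGF effect minus the sum of both single effects on the log2 scale, was 0.28 ± 0.20 (adjusted p = 0.72). Within library series 1 the ratio to control was 1.15 with EGF and 1.54 with AII+EGF, and within series 2 it was 1.31 and 1.32. NEFM, a HEK293 marker that encodes a neurofilament subunit, also rose with AII+EGF after 6 h (log2 fold change 0.73 ± 0.10, edgeR, adjusted p = 3.3e-05). The summed level of the 5 markers was 1473 to 1641 FPM against 1218 to 1329 FPM in control. By marker, means in control and with AII+EGF were 443 and 737 FPM for NEFM, 312 and 294 for VIM, and 457 and 447 for NEFL. They were 53.8 and 65.7 FPM for CDH2 and 0.58 and 0.74 for PAX2. The sum thus mostly followed NEFM, and the part of these differences in the RGS16 values was not tested.

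**Figure D2:**
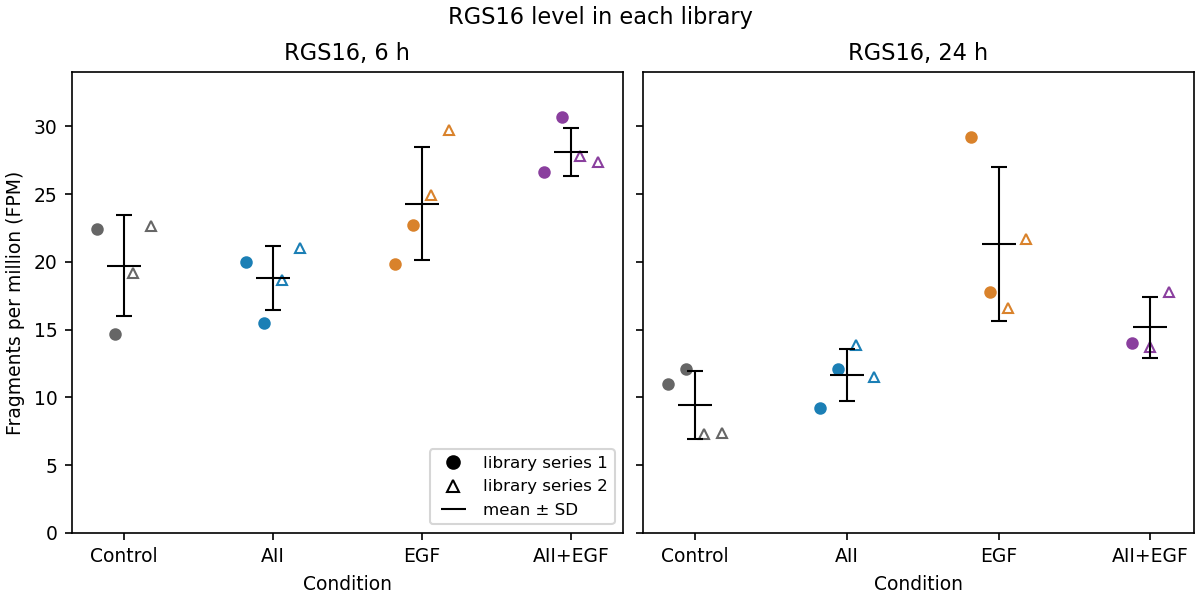
RGS16 in FPM in each library by condition after 6 h (left) and 24 h (right); symbols show the library series, bars the mean ± SD. After 24 h the EGF libraries lay between 16.6 and 29.2 FPM and the control libraries between 7.27 and 12.1 FPM.

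After 24 h RGS16 was at 10.98, 12.1, 7.27 and 7.36 FPM in control and at 9.24, 12.1, 13.9 and 11.5 FPM with AII. With EGF it was at 29.2, 17.8, 16.6 and 21.7 FPM, all above the control and AII libraries. With AII+EGF it was at 13.998, 13.8 and 17.8 FPM, all above the controls, and 2 of 3 lay below all EGF libraries. As a description, the mean with EGF (21.3 ± 5.7 FPM, n = 4) was 2.26-fold the control mean of 9.43 ± 2.49 FPM (log2 fold change 1.17 ± 0.21 SE), which met the call rule of an FDR below 0.05, a fold change above 1.5 and a mean above 5 FPM. It was met in only 3 of the 15 fits that left out 1 library, and not without the 2 libraries with over 50% of their counts on U1 genes, an alternative chosen after seeing the data. These 2 libraries were of AII and AII+EGF, and the log2 fold change of EGF without them was 1.16. Over all alternatives it ran from 0.99 to 1.32. The ratio was 2.04 within library series 1 and 2.62 within series 2. NEFM was also higher in these EGF libraries (log2 fold change 1.16 ± 0.15, edgeR, adjusted p = 0.0010). The summed level of the 5 markers was 3292 to 4356 FPM with EGF against 1864 to 2088 FPM in control. By marker, means in control and with EGF were 1382 and 3093 FPM for NEFM, 363 and 483 for NEFL, and 175 and 197 for VIM. They were 31.8 and 27.4 FPM for CDH2 and 0.34 and 0.31 for PAX2, so the sum mostly followed NEFM. The EGF library with the highest RGS16 level had 36.0% of its counts on protein-coding genes and the control libraries 35.6 to 63.4%. The part of these differences between libraries in the RGS16 values was not tested.

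The AII+EGF and EGF comparisons share their control libraries. With AII+EGF the log2 fold change of RGS16 after 24 h was 0.70 ± 0.22 (adjusted p = 0.62), and with AII it was 0.31 ± 0.21 (adjusted p = 1.00). Values that hold the EGF libraries of 24 h are again a description. The log2 fold change between AII+EGF and EGF was -0.48 ± 0.22, and the interaction was -0.79 ± 0.31. Neither met the call rule, and the interaction after 24 h was not tested against that after 6 h. Within library series the ratio of AII+EGF to control was 1.21 in series 1, with 1 AII+EGF library, and 2.16 in series 2. The effect of EGF on RGS16 was larger after 24 h than after 6 h by 0.86 ± 0.26 on the log2 scale (joint fit of both tables), which did not meet the call rule. The corresponding differences were 0.40 ± 0.27 for AII (adjusted p = 1.00) and 0.16 ± 0.27 for AII+EGF (adjusted p = 0.95). Over the 15 libraries after 24 h and 11713 genes with a mean above 5 FPM, the levels most like RGS16 on the log2(FPM + 1) scale were those of CA2 (Pearson's r = 0.89), IQGAP3 (0.89) and PPP3R1 (0.87). These correlations describe libraries that share conditions and U1 content.

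Among the other R4 genes, RGS2 (ENSG00000116741, chr1:192778169-192781405), the member that prefers Gq, was at 3.89 ± 1.31 FPM in the unstimulated cells after 6 h, 2.59 ± 0.83 with AII, 2.81 ± 0.63 with EGF, and 2.88 ± 0.78 after the combination (n = 4 each). The groups overlapped, and with 10 to 34 counts per library the 95% confidence interval of the AII difference ran from -1.26 to 0.01 on the log2 scale. After 24 h RGS2 was at 4.06, 4.67, 1.86 and 0.75 FPM in control, at 4.45, 4.03, 0.84 and 0.98 FPM with AII, at 1.96, 5.26, 2.61 and 0.08 FPM with EGF, and at 3.48, 3.41 and 2.34 FPM with AII+EGF. The 7 libraries of series 1 ran from 1.96 to 5.26 FPM (median 4.06) and the 8 of series 2 from 0.08 to 3.41 FPM (median 1.42). In control and with AII both libraries of series 1 lay above both of series 2, whereas with EGF the series overlapped and with AII+EGF they lay close to each other at 3.48 and 3.41 FPM in the nearest libraries. The 95% confidence interval for EGF after 24 h ran from -1.58 to 1.24, so that a change of 2-fold in either direction was not excluded.

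RGS3 (ENSG00000138835, chr9:116207011-116360023), which also binds G beta-gamma, was at 3.36 ± 0.91, 2.55 ± 0.69, 2.27 ± 1.07 and 3.11 ± 0.71 FPM in control, AII, EGF and AII+EGF after 6 h. After 24 h it was at 2.36 ± 0.43, 1.64 ± 0.48, 1.92 ± 0.29 and 2.29 ± 0.07 FPM. RGS5 (ENSG00000143248, chr1:163080911-163291581), known from pericytes and vascular smooth muscle, was at 2.65 ± 0.78, 2.76 ± 0.58, 3.21 ± 0.46 and 3.03 ± 0.44 FPM in the same order after 6 h. After 24 h it was at 2.37 ± 0.90, 1.19 ± 0.55, 1.24 ± 0.89 and 1.65 ± 0.21 FPM, with wide 95% confidence intervals of the log2 fold change, from -2.13 to 0.17 for AII and from -2.09 to 0.22 for EGF. In the GENCODE annotation, the exons of RGS5 share 8.06% of their length with another gene on the same strand. How reads of this stretch were assigned in the deposited counts is not known. RGS4 (ENSG00000117152, chr1:163038565-163046592), abundant in brain, had 10 counts in 1 AII+EGF library after 24 h and at most 4 in every other library, so differences were not detectable at this depth.

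RGS10 (ENSG00000148908, chr10:121259329-121302231 on the minus strand), a small RGS protein acting on Gi, had the second highest log2 fold change with EGF after 24 h. After 6 h it was at 12.03, 11.6, 14.6 and 12.4 FPM in control and at 10.1, 10.4, 10.0 and 10.2 FPM with AII, all below the controls. With EGF it was at 11.98, 9.71, 11.7 and 9.70 FPM and with AII+EGF at 11.97, 10.4, 11.6 and 11.1 FPM, both overlapping with control. The log2 fold change with AII was -0.31 ± 0.14 (adjusted p = 0.99). After 24 h RGS10 was at 14.95, 15.9, 15.03 and 16.8 FPM in control and at 15.3, 14.5, 14.5 and 19.5 FPM with AII. With EGF it was at 24.9, 22.5, 25.4 and 15.9 FPM, so that 3 of 4 libraries lay above all controls, and with AII+EGF at 22.3, 18.9 and 20.8 FPM, all above the controls. The log2 fold change was 0.50 ± 0.16 with EGF (adjusted p = 0.34) and 0.40 ± 0.17 with AII+EGF (adjusted p = 0.91), and neither passed the threshold. Within series 1 and 2 the ratio of EGF to control was 1.54 and 1.30, and that of AII+EGF 1.44 and 1.25.

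The effect of EGF on RGS10 was larger after 24 h than after 6 h by 0.74 ± 0.20 on the log2 scale (adjusted p = 0.14), with log2 fold changes of -0.24 ± 0.13 and 0.50 ± 0.16. It was not called in 30 of the 31 fits that left out 1 library; the exception was the fit without EGF replicate 4 of 24 h, the library with the lowest RGS10 level of that group (difference 0.87, adjusted p = 0.031). For AII+EGF the difference between time points was 0.55 ± 0.20 (adjusted p = 0.46).

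**Figure D3:**
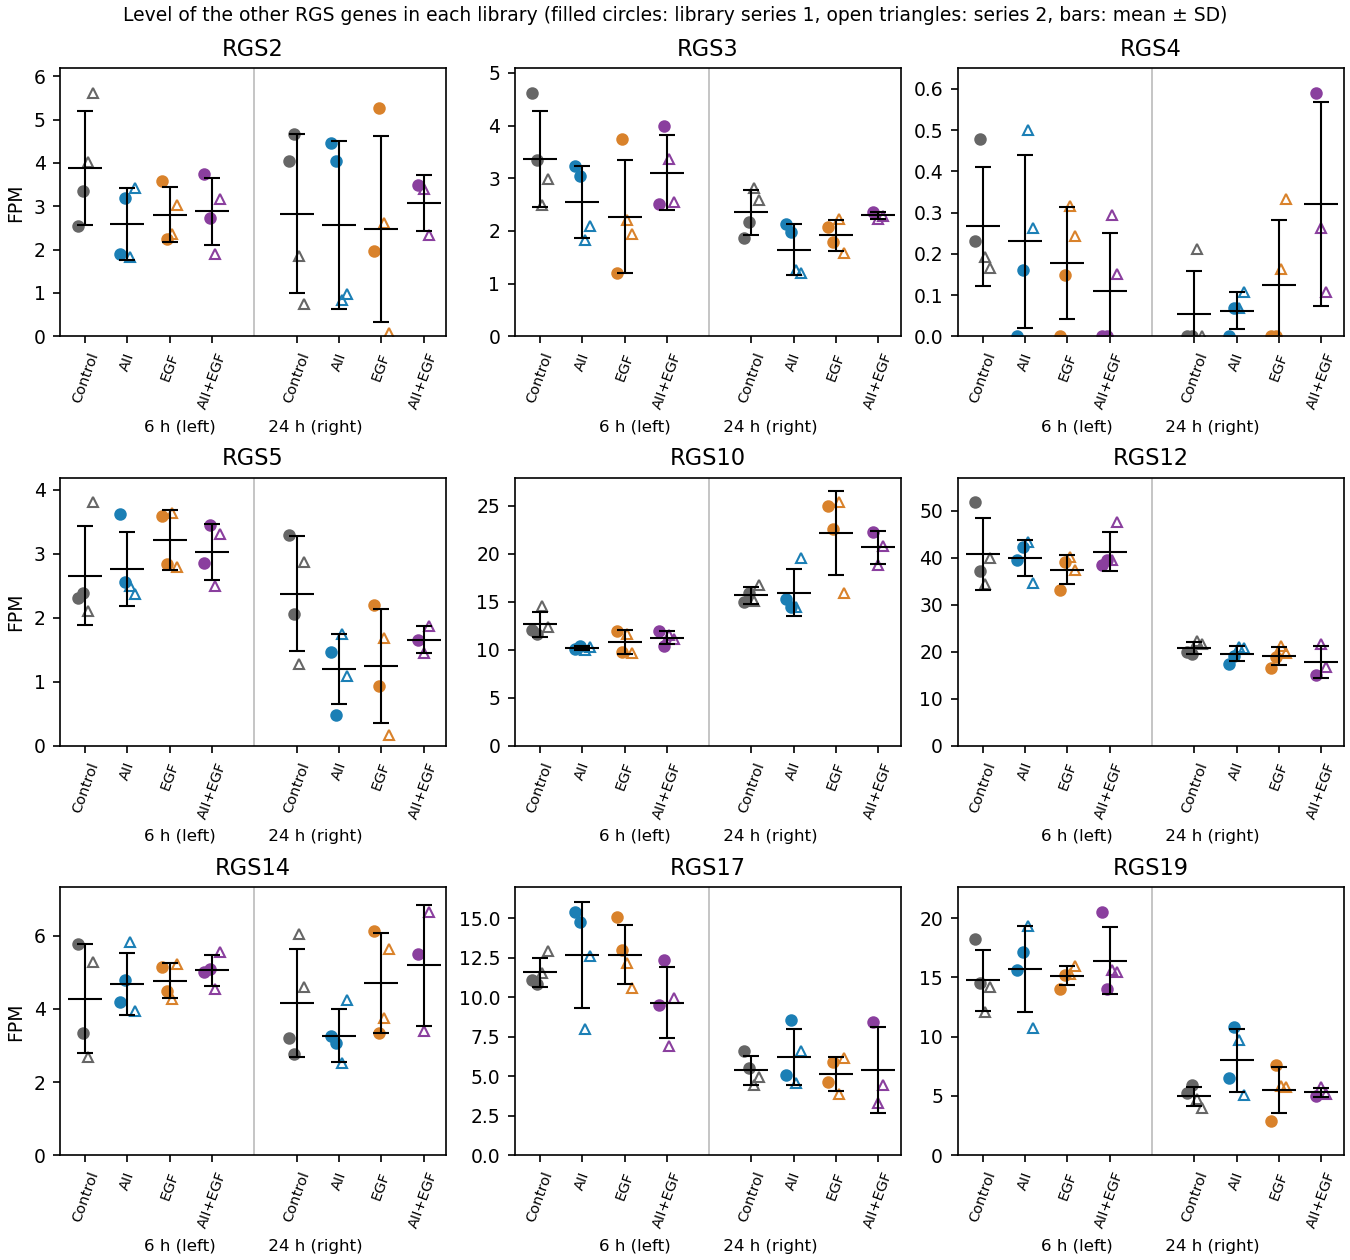
FPM of the other 9 RGS genes in each library, by condition after 6 h and 24 h; filled circles are library series 1, open triangles series 2, bars mean ± SD. RGS10 after 24 h is higher in 3 of 4 EGF libraries (22.5 to 25.4 FPM) than in control (14.95 to 16.8 FPM), and RGS2 after 24 h runs from 1.96 to 5.26 FPM in series 1 and from 0.08 to 3.41 FPM in series 2.

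The other R12 genes are RGS12 and RGS14, which carry a GoLoco motif that binds inactive Gi alpha. RGS12 (ENSG00000159788, chr4:3294748-3441640) was at 40.8 ± 7.6, 40.0 ± 3.9, 37.5 ± 3.1 and 41.3 ± 4.2 FPM after 6 h, in the order control, AII, EGF, AII+EGF. After 24 h it was at 20.8 ± 1.3, 19.6 ± 1.6, 19.1 ± 2.0 and 17.8 ± 3.4 FPM in this order. Its counts were high enough (132 to 419 per library) that the 95% confidence intervals of the differences from control lay between -0.35 and 0.26 after 6 h and between -0.55 and 0.20 after 24 h. RGS14 (ENSG00000169220, chr5:176784925-176799597) was at 4.28 ± 1.49, 4.69 ± 0.85, 4.77 ± 0.47 and 5.05 ± 0.42 FPM after 6 h and at 4.16 ± 1.48, 3.27 ± 0.72, 4.71 ± 1.37 and 5.19 ± 1.65 FPM after 24 h, with overlapping groups throughout. Its 95% confidence intervals after 24 h ran from -1.02 to 0.29 with AII and from -0.36 to 1.02 with AII+EGF on the log2 scale. A 2-fold decrease with AII and a 2-fold increase with AII+EGF were thus not excluded.

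Of the RZ genes, RGS17 (ENSG00000091844, chr6:153325594-153452417) was at 10.5 to 15.1 FPM with EGF (mean 12.7 ± 1.9) and at 6.88 to 12.4 FPM with AII+EGF (mean 9.66 ± 2.24) after 6 h, and the groups overlapped. The log2 fold change between them was -0.39 ± 0.19, which did not pass correction (adjusted p = 0.68), and the ratio was 0.78 in series 1 and 0.74 in series 2. In control and AII it was at 11.6 ± 0.9 and 12.7 ± 3.3 FPM, and after 24 h at 5.37 ± 0.92, 6.20 ± 1.79, 5.12 ± 1.07 and 5.40 ± 2.71 FPM in control, AII, EGF and AII+EGF. RGS19 (ENSG00000171700, chr20:62704534-62711341 on the minus strand) was at 14.8 ± 2.6, 15.7 ± 3.6, 15.1 ± 0.8 and 16.4 ± 2.9 FPM after 6 h. After 24 h RGS19 was at 5.24, 5.94, 4.73 and 4.02 FPM in control and at 6.51, 10.8, 9.68 and 5.10 FPM with AII, so that 3 of 4 AII libraries lay above the controls. Its log2 fold change with AII was 0.69 ± 0.28 (adjusted p = 1.00), and the ratio was 1.55 in series 1 and 1.69 in series 2. With EGF and AII+EGF it was at 5.52 ± 1.95 and 5.32 ± 0.39 FPM.

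**Figure D4:**
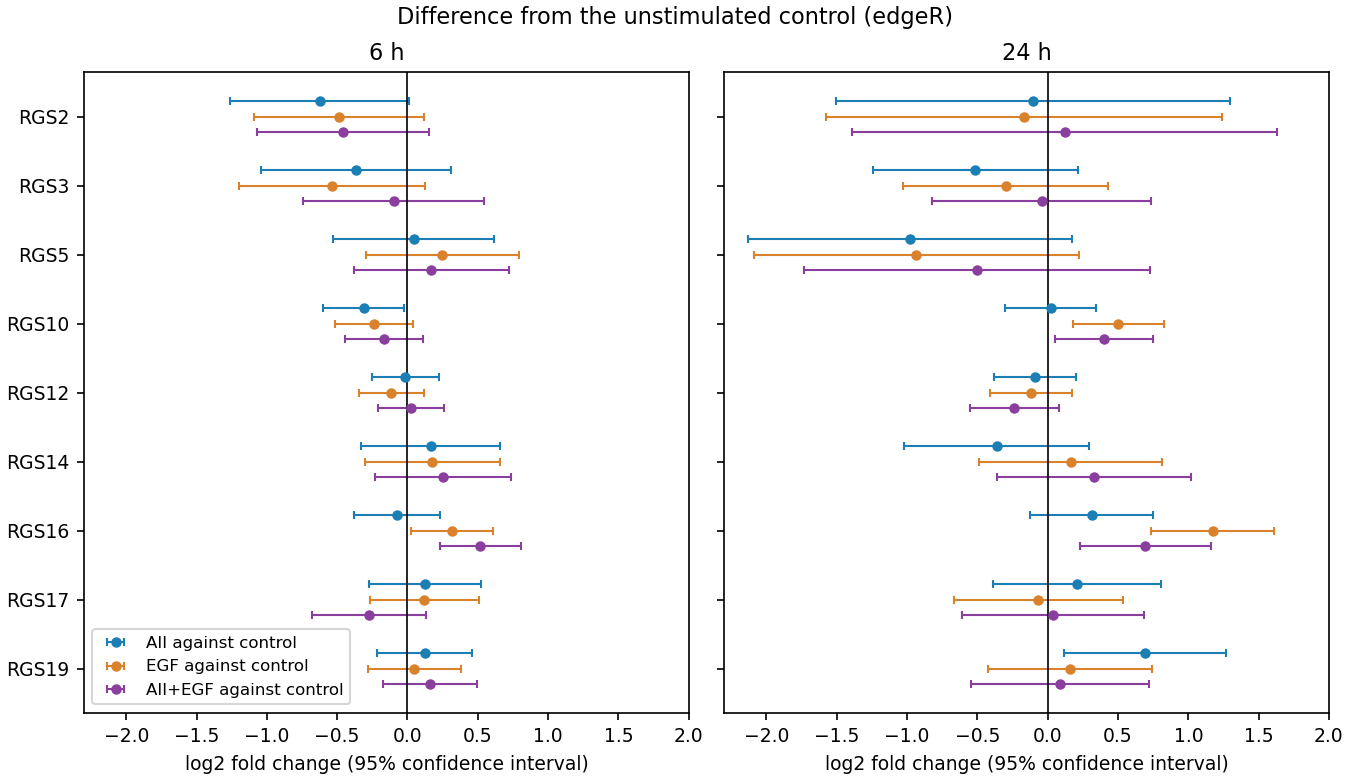
log2 fold change against control of the 9 RGS genes tested, with 95% confidence intervals (edgeR), after 6 h (left) and 24 h (right). RGS16 is above 0 with EGF and AII+EGF at both time points, at 1.17 with EGF after 24 h, and intervals of RGS2 and RGS5 after 24 h are wide.

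Counted over the RGS genes, AII alone called 0 of 9 after 6 h and 0 of 9 after 24 h, with 1 gene below an unadjusted p of 0.05 at each time point (RGS10 and RGS19), and the same call rule took 0% of all genes tested at either time point. EGF after 6 h called 0 of 9, with 1 (RGS16) below 0.05, where 1.73% of all genes were called, and AII+EGF after 6 h called 0 of 9, where 1.95% were called. By FDR alone, AII+EGF after 6 h took 1 of 9 (RGS16), and 6.10% of all genes. After 24 h, 1 of 9 was called with EGF, RGS16, known from the earlier results, beside 0.0316% of all genes, and 0 of 9 with AII+EGF, with 2 below 0.05 (RGS10 and RGS16), beside 0.0271%. The comparison of AII+EGF with EGF and the interaction called 0 of 9 at both time points, as for all genes (0%), with 1 gene below 0.05 for each except the interaction after 6 h, which had 0. For the difference between time points, 0 of 9 were called for AII (0% of all genes, 0 below 0.05), EGF (0.164%, 2 below 0.05) and AII+EGF (0.123%, 1 below 0.05). All shares of all genes in this paragraph refer to the call rule or to FDR alone. The share of all genes below an unadjusted p of 0.05 is not given here. The counts below 0.05 thus have no background and do not show an excess among the RGS genes. DESeq2 gave the same counts of calls in all of these comparisons. The median log2 fold change of the 9 genes for AII, EGF and AII+EGF was -0.01, 0.05 and 0.03 after 6 h and -0.09, -0.07 and 0.09 after 24 h, while the median over all genes tested lay between -0.01 and 0.00 in these comparisons.

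Of the 11 other RGS genes, which include those of the brain and retina (RGS7, RGS9, RGS11) and of leukocytes (RGS1, RGS13, RGS18), 2 passed the low-count filter after 6 h and 3 after 24 h, and 0 were called in any comparison. RGS20, an RZ gene, was at 3.47 to 9.24 FPM after 6 h and 1.93 to 11.4 FPM after 24 h. RGS18 and RGS21 had 0 counts in every library. Of the 5 partners of R7 RGS proteins, 3 and 4 were tested, and 0 were called; GNB5, the G beta subunit that stabilises R7 proteins, was at 12.1 to 22.2 FPM after 6 h. Of 16 other genes with an RGS homology domain, such as the G protein-coupled receptor kinases and the axins, 14 were tested and 0 were called in any comparison. The call rule took at most 1.95% of all genes tested in any comparison. Counts of 0 in lists this short lie close to that share and say nothing on how these genes respond.

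Of the 16 genes of G alpha subunits, 12 were tested at each time point. With AII+EGF after 6 h 1 of 12 was called, where 1.95% of all genes were called, and 0 in the other comparisons. This was GNAL, the alpha subunit of the Gs class known from olfactory and striatal neurons. It was at 18.8 to 23.0 FPM in control and at 29.6 to 34.4 FPM with AII+EGF after 6 h, and rose by 0.65 ± 0.11 on the log2 scale (adjusted p = 0.00051). It was at 24.8 to 28.9 FPM with EGF and at 14.7 to 19.7 FPM with AII. Of 16 G beta and gamma genes 12 were tested, and 0 were called in any comparison. No comparison called more than 1.95% of all genes, so the counts of 0 in both lists lie close to that share.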

How the data were processed

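RNA of HEK293 cells was sequenced as paired ends on HiSeq2000. Per the labels and methods, the authors removed adaptors (Trim Galore, cutadapt 1.8.1), mapped reads with TopHat2 2.0.14 to hg19 and counted them with featureCounts 1.4.6 on an Ensembl archive; the series text names HISAT2 instead, and the strand setting is not given in the sources used here. Both deposited tables hold raw counts. The labels name 32 libraries; 1 AII+EGF library of 24 h has no mapped column and was not analysed here.

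Differences were tested by the quasi-likelihood method of edgeR 4.0.16 (R 4.3.3; TMM factors; filterByExpr; all conditions of a time point in 1 fit, and a joint fit for differences between time points) and adjusted by Benjamini-Hochberg over all genes tested (18618 after 6 h, 22174 after 24 h, 21932 jointly). A call required an FDR below 0.05, a fold change above 1.5 and a mean above 5 FPM, the latter not applied to differences between time points. FPM used TMM library sizes. Standard errors follow from the F statistic. Exon lengths and positions came from GENCODE annotation on GRCh37, promoters from RefSeq. Members, lists and named genes (all members; fold changes with p-values where the unadjusted p was below 0.05 or the gene was called; the 3 genes most correlated with a called member; called genes of the lists) were chosen with earlier results of these data known. Alternatives were DESeq2 1.42.0, its size factors, no count filter, other FDR rules, a library series term, protein-coding genes alone and leaving out libraries. The fits were tested on simulated data. No libraries were duplicates by their counts.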

Additional observations from a re-analysis of the deposited data

Results flagged for a closer look

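In 70 groups of 4 libraries (10 genes, 4 conditions after 6 h and 3 after 24 h), 5 held a library far from the other 3, where about 3.5 are flagged by chance. The gap to the nearest library, as a share of the group's whole range, was 0.843 for RGS10 in AII replicate 4 after 24 h (19.5 FPM against 14.5 to 15.3). For RGS12 in AII+EGF replicate 4 after 6 h it was 0.871 (47.5 FPM against 38.4 to 39.6). For RGS5 it was 0.841 in AII replicate 1 after 6 h (3.61 FPM against 2.36 to 2.56) and 0.832 in control replicate 4 after 6 h (3.80 FPM against 2.11 to 2.39). For RGS4 it was 1.0 in control replicate 3 after 24 h, where that library had 4 counts and the other 3 had 0. No difference of an effect between time points passed the test for an RGS gene.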

How the results depend on the processing

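The number of RGS genes called was 0 under each alternative in 10 of 13 comparisons, and otherwise changed as follows. With AII+EGF after 6 h it was 1 by FDR alone (RGS16), and 0 to 1 when single libraries were left out. With EGF after 24 h it was 0 at an FDR below 0.01 and 0 without the 2 U1-rich libraries (an alternative added after seeing the data), and 0 to 1 when single libraries were left out. The RGS16 call was lost in 12 of these 15 fits, with log2 fold changes of 0.99 to 1.32 over all 15, and kept without control replicate 2, EGF replicate 3 or AII replicate 3. The number for the EGF effect after 24 h against 6 h was 0 to 1 when single libraries were left out, with RGS10 called without EGF replicate 4 of 24 h. The log2 fold change of RGS16 with AII after 6 h changed sign without AII replicate 2 (0.016) and without control replicate 4 (0.0094), and ran from -0.20 to 0.016 when single libraries were left out. Of 20 results for single genes, 16 kept direction and side of the threshold under all alternatives. No paired analysis was possible because replicates carry no number in the labels. Low counts limit RGS2, RGS3, RGS4 and RGS5, and the spread after 24 h limits all members.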
